A study of Homo sapiens with 27 samples.

Results

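ZEB2, SNAI1, SNAI2, TWIST1, TWIST2, PRRX1, FOXC2, TCF4 and TCF3 are the transcription factors other than ZEB1 that are most often named as drivers of the epithelial-mesenchymal transition (EMT). They were chosen by name for this role, with earlier results of these data known. They are 9 of the 57165 genes in the table of RNA-seq values. The question asked of them was whether their transcripts change when ZEB1 is silenced. RNA was sequenced from SUM159 and MDA-MB-231, human triple negative breast cancer lines used as models of the mesenchymal, claudin-low subtype, in 27 libraries that form 9 groups of 3.

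Wild type cells were untransduced. For SUM159 there are 2 such groups, with 3 libraries from run 1 and 3 others from run 2. All other groups carried a lentiviral dCas9-KRAB vector, a nuclease-dead Cas9 joined to the KRAB repressor domain, and were selected with puromycin. No gRNA cells had the vector without a guide RNA. In SUM159 the ZEB1-targeted groups were gRNA 4, with a single guide to the ZEB1 promoter, and All gRNA, with the pool of 4 guides. In MDA-MB-231 the title and the column name of the 6 targeted libraries give opposite guides, so these groups are called set 1 (gRNA 4 in the title) and set 2 (all guides in the title), and neither was assigned to a guide. The titles name a run only for the second SUM159 wild type group (run 2). The other runs were read from the column names, which start with B1 or B2. By these, all SUM159 groups except the second wild type group were in run 1 and all MDA-MB-231 groups were in run 2. The labels call the libraries biological replicates and the study's methods call them individual clones. Nothing says that the clones came from separate transductions, so p-values measure the spread between these libraries only.

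EMT transcription factors lower the expression of cell junction genes and raise that of mesenchymal genes. ZEB and SNAI proteins are zinc finger factors that bind E-box motifs in promoters such as that of CDH1 (E-cadherin), and TWIST, TCF3 and TCF4 are basic helix-loop-helix factors that bind E-boxes as dimers. PRRX1 is a homeobox factor and FOXC2 a forkhead factor. ZEB1 and ZEB2 are paralogues held in check in epithelial cells by the miR-200 family.

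Each library held 15461200 to 21473757 estimated counts. Levels are given as CPM, the count of a gene relative to the library's total, with totals corrected by the trimmed mean of M values (TMM), and a gene at or under 3 counts in a library was treated as at the floor. Of 13 marker genes for the label, VIM, CD44 and AXL were present in every library, with VIM between 1316 and 4343 CPM. ESR1 and PGR stayed at or under 0.959 CPM, ERBB2 was between 38.1 and 72.1 CPM, the leukocyte gene PTPRC was at most 0.294 CPM and the endothelial gene PECAM1 between 0.382 and 7.93 CPM. CLDN3, CLDN4 and CLDN7 were at most 1.10 CPM in SUM159. In MDA-MB-231 wild type and No gRNA cells CLDN4 was between 63.5 and 70.2 CPM and CLDN7 between 15.4 and 42.3 CPM, so these claudins go against the label claudin-low there. In the same libraries EPCAM was between 10.9 and 14.2 CPM and CDH1 at most 1.02 CPM. ZEB1, the target, averaged 73.7 CPM ± 3.30 (SD, n = 3) in SUM159 No gRNA cells, 0.737 ± 0.331 in All gRNA cells and 3.46 ± 1.01 in gRNA 4 cells. Its mean in MDA-MB-231 was 110 CPM ± 10.1 in No gRNA cells, 5.33 ± 0.520 in set 1 and 4.69 ± 0.888 in set 2.

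ZEB2 holds more matches to miR-200 sequences than any other member, and ZEB1, the target, holds such matches too. The mature miRNAs are shown first, 5′ to 3′, from RefSeq (GRCh38.p14), with the seed (bases 2 to 8) in capitals. The first 3 share 1 seed, and a second seed is shared by miR-200a-3p and miR-141-3p.
miR-200b-3p: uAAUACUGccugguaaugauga
miR-200c-3p: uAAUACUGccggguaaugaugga
miR-429: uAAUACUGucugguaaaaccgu
miR-200a-3p: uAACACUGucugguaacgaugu
miR-141-3p: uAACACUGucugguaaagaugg
miR-205-5p: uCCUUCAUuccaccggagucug

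The 3′ untranslated region (UTR) of the canonical transcript of each gene (GENCODE release 44, GRCh38) was searched for the 7 letters that pair with each seed. ZEB2 held 5 matches to the miR-200b, miR-200c and miR-429 seed (CAGTATT) and 4 to the miR-200a and miR-141 seed (CAGTGTT) in 5370 bases, and ZEB1 held 6 and 3 in 2540 bases. Among all 19195 protein-coding 3′ UTRs, 16.3% held the first match and 18.5% the second at least once. SNAI2 held 1 match to the first seed and TCF4 held 1 and 2. SNAI1, TWIST1, TWIST2, PRRX1, FOXC2 and TCF3 held none for either seed. The match to miR-205-5p (ATGAAGG), present in 11.8% of the 3′ UTRs, was found once in TCF3 and once in ZEB1 and in no other member. Of the ZEB2 sites on chromosome 2 (minus strand, GRCh38), 4 are printed with the seed match in capitals, since they show matches to both seeds, and 1 ZEB1 site on chromosome 10 (plus strand) is given beside them.
ZEB2 first seed, chr2:144388989-144389010: gcactacaatgcatCAGTATTa
ZEB2 first seed, chr2:144388631-144388652: tgaagcacccatgtCAGTATTa
ZEB2 second seed, chr2:144389236-144389257: gcaaaaattttgtaCAGTGTTa
ZEB2 second seed, chr2:144388710-144388731: gtgccatccttgtaCAGTGTTa
ZEB1 first seed, chr10:31528493-31528514: tgatttttacctatCAGTATTa

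A seed match is a description of letters and not a measured site, and mature miRNAs were not measured here. The host transcript of miR-205, MIR205HG, was looked up after its values were seen. MIR205HG was between 15.2 and 17.4 CPM in SUM159 No gRNA cells, between 40.5 and 41.9 with gRNA 4, and between 39.1 and 45.4 with All gRNA. Wild type cells of the same run were between 14.3 and 16.1 CPM, a change of 0.11 ± 0.0978 in No gRNA cells on the log2 scale, while wild type cells of run 2 were between 0.368 and 1.02 CPM, lower than run 1 by TREAT (-4.71 ± 0.328). With gRNA 4 and All gRNA against No gRNA, MIR205HG passed the moderated test against 0 (limma, adjusted p = 1.73e-06 and 1.47e-06) but not the test against a change of 1 on the log2 scale (adjusted p = 0.230 and 0.171). In MDA-MB-231 no library was above 0.323 CPM. MIR200CHG, the host transcript of miR-200c and miR-141, was listed at 0 in all 27 libraries.

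In the table of RefSeq promoters (300 bases, 250 before to 50 after a start, GRCh38.p14), ZEB2, TWIST2, PRRX1, TCF4 and TCF3 had an entry, with 10 starts for TCF4 and 1 for each of the others. The E-box CAGGTG, searched on both strands, was found at none of these starts and in 20.6% of all 35116 promoters. The looser CANNTG, which includes CAGGTG, was found at the ZEB2 start, at 7 of the 10 TCF4 starts and in 68.7% of all promoters. SNAI1, SNAI2, TWIST1 and FOXC2 were not looked at.

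The lines differed first in which of these factors they used at all. SUM159 wild type cells had 8 members above the floor in every library and PRRX1 in most, while in MDA-MB-231 TWIST1, TWIST2 and FOXC2 were at the floor in every library, PRRX1 in all but 1, and TCF4 was at most 2.15 CPM. Run 2 holds wild type libraries of both lines and was used for the comparison. TREAT is limma's test of whether a change exceeds 1 on the log2 scale, here adjusted over all genes tested by the Benjamini-Hochberg method. It called 6 of 8 members tested higher in SUM159, where 29.1% of 15110 genes were called. The moderated test against 0 called all 8 tested, where 75.5% of genes were called. The median log2 difference of the 8 was 3.78 and that of all genes was -0.01.

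TWIST1 (chromosome 7, 19020991 to 19117636, minus strand), a basic helix-loop-helix factor of neural crest and mesoderm, was measured at 2.35, 3.19 and 3.65 CPM in SUM159 wild type cells of run 2 and was listed at 0 in all 12 MDA-MB-231 libraries. It was at least 16.9-fold higher in SUM159, against the floor of 3 counts per library. TWIST2 (chromosome 2, 238848032 to 238910534, plus strand), its paralogue, was at 33.7, 35.5 and 38.7 CPM in SUM159 and at 0 in 11 of 12 MDA-MB-231 libraries, at least 198-fold higher. FOXC2 (chromosome 16, 86566829 to 86569728, plus strand), a regulator of lymphatic and mesenchymal tissue, had 2515 counts over the 3 SUM159 libraries and 4 over the 3 MDA-MB-231 libraries, a ratio of 705 with an exact interval (95%) of 275 to 2588 that covers counting error only. The libraries of the lines did not overlap for any of these genes.

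TCF4 (chromosome 18, 55222185 to 55664787, minus strand), also known as E2-2, was at 35.3, 36.7 and 45.7 CPM in SUM159 wild type cells and at 0.304, 1.01 and 1.09 CPM in MDA-MB-231, a log2 difference of 5.76 ± 0.451 (SE; adjusted p = 8.24e-05, TREAT in limma). TCF3 (chromosome 19, 1609291 to 1652615, minus strand), which encodes the E proteins E12 and E47, was at 213, 221 and 237 CPM against 60.7, 68.2 and 75.8 CPM, a difference of 1.72 ± 0.0841 (adjusted p = 0.000234). ZEB2 (chromosome 2, 144364364 to 144521057, minus strand), a zinc finger homeobox repressor, was at 45.5, 53.7 and 54.4 CPM against 13.1, 14.7 and 16.3 CPM, a difference of 1.79 ± 0.122 (adjusted p = 0.000989). Each of these genes was higher in all 3 SUM159 libraries than in any MDA-MB-231 wild type library.

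In run 2 the SNAI genes differed less between the lines than the 6 genes called. SNAI2 (chromosome 8, 48917598 to 48921740, minus strand), also known as Slug, was at 25.9, 27.8 and 28.0 CPM in SUM159 of run 2 and at 16.0, 16.0 and 17.8 CPM in MDA-MB-231, a log2 difference of 0.71 ± 0.0871 that passed only the moderated test (adjusted p = 0.000215 in limma, 1 by TREAT). SNAI1 (chromosome 20, 49982980 to 49988886, plus strand), also known as Snail, was at 5.74, 6.02 and 6.13 CPM against 2.52, 2.53 and 2.77 CPM, a difference of 1.18 ± 0.149 (moderated adjusted p = 0.000245 in limma, 0.361 by TREAT). With SUM159 wild type of run 1 in place of run 2 the SNAI2 difference was 2.70 and passed TREAT (adjusted p = 2.40e-06 in limma), and SNAI1 turned to -0.45. ZEB2 was then at 2.90, and TCF3 at 1.05 no longer passed TREAT (adjusted p = 0.840). PRRX1 (chromosome 1, 170662728 to 170739421, plus strand), a homeobox factor of limb and skull mesenchyme, passed no filter here, with 24 counts over the 3 SUM159 libraries and 1 over the 3 MDA-MB-231 libraries (ratio 27.6, exact 95% interval 4.498 to 1134).

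**Figure D1:**
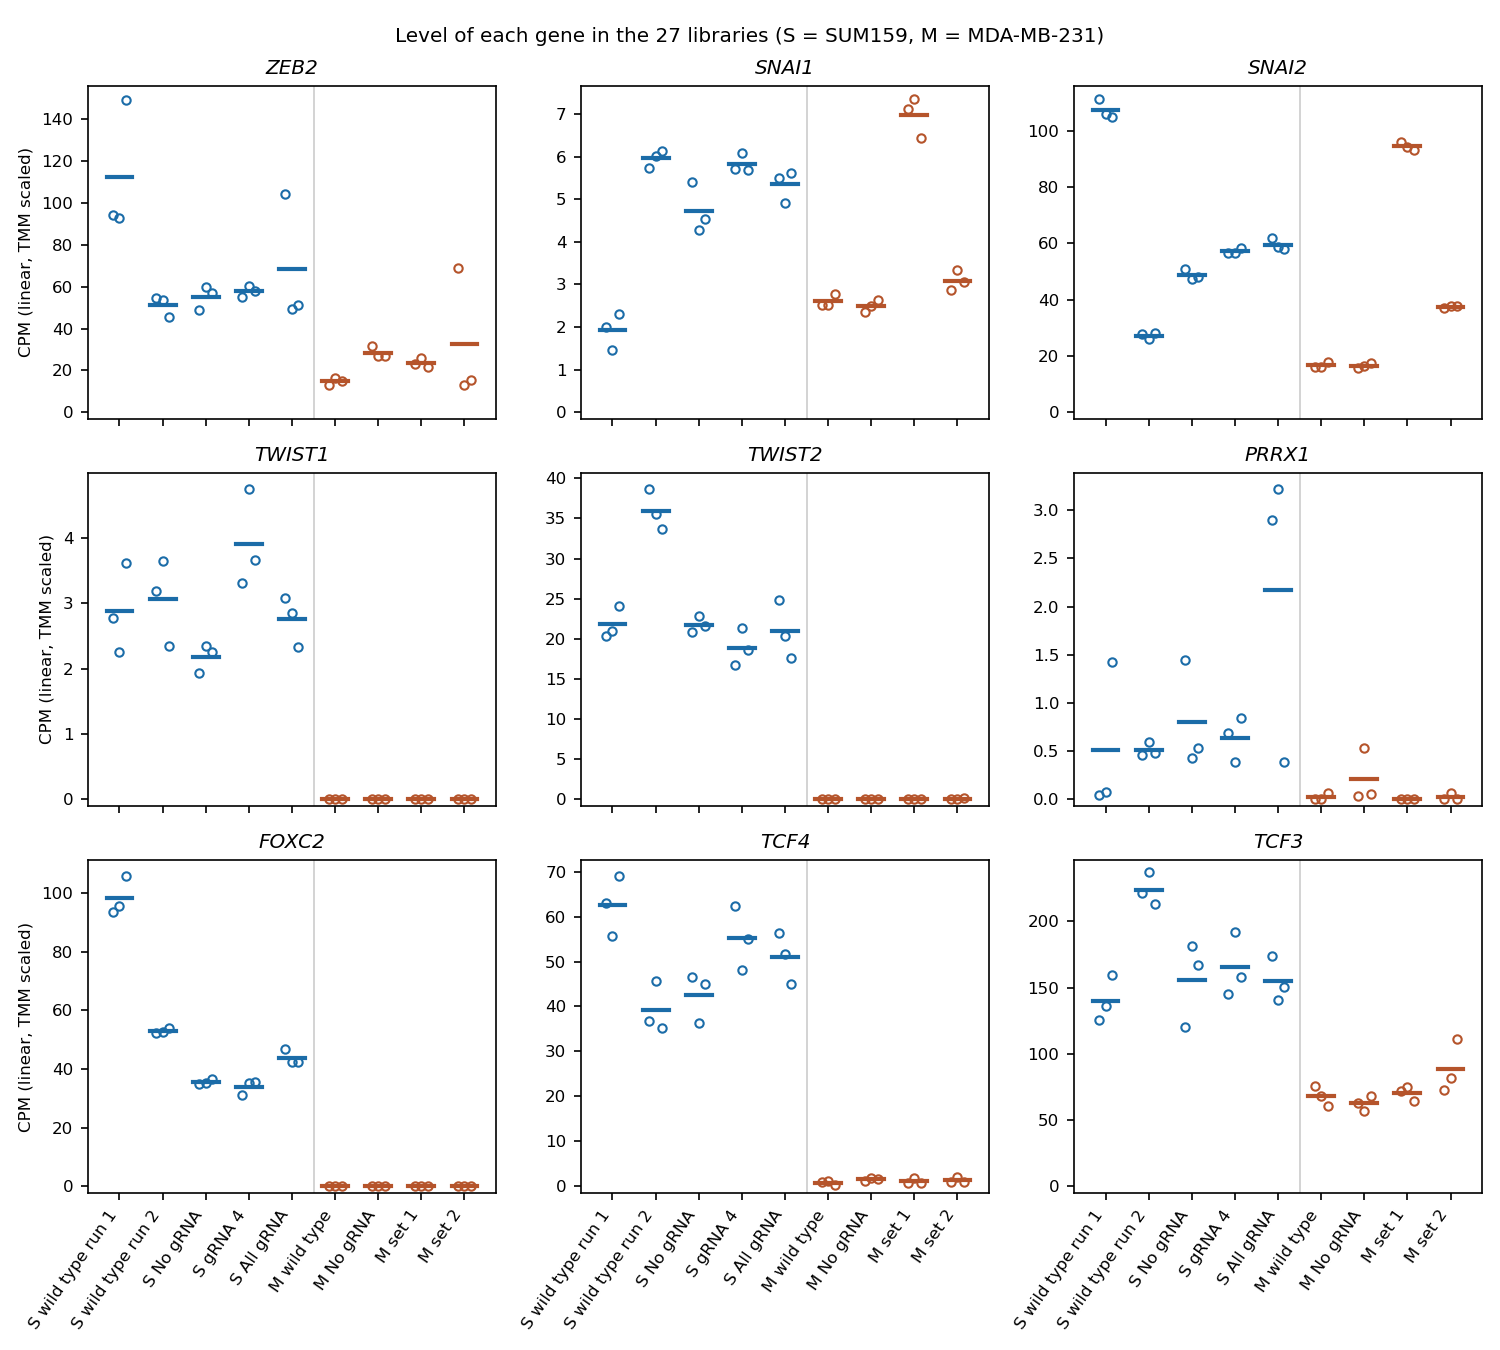
Each panel shows 1 gene, with TMM-scaled CPM on a linear axis from 0, the 9 groups along the x axis (blue SUM159, orange MDA-MB-231), a circle for each of the 3 libraries and a line at the group mean. SNAI2 in MDA-MB-231 lies between 15.6 and 17.8 CPM in wild type and No gRNA cells, between 37.0 and 37.6 in set 2 and between 93.1 and 95.8 in set 1, while TWIST1, TWIST2 and FOXC2 lie at or near 0 in that line.

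Per length, the most abundant members were an E protein and a SNAI gene in most groups. With the CPM divided by the kilobases of merged exons, TCF3 was highest in 7 of the 9 groups. SNAI2 was highest in MDA-MB-231 set 1, at 28.8 CPM per kb, and FOXC2 in SUM159 wild type of run 1, at 33.9 CPM per kb, where its libraries overlapped those of SNAI2, the next in order. In SUM159 No gRNA cells the order was TCF3, SNAI2, FOXC2, TWIST2, SNAI1, ZEB2, TCF4, TWIST1 and PRRX1, and no neighbours in it overlapped. In MDA-MB-231 No gRNA cells the order was TCF3, SNAI2, SNAI1, ZEB2 and TCF4, with the other members overlapping below. In set 2 the libraries of TCF3 and SNAI2 overlapped.

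The sum over the 9 genes was 17.9 CPM per kb ± 0.788 (SD, n = 3) in MDA-MB-231 wild type cells and 17.5 ± 1.01 in No gRNA cells. It was 44.8 ± 1.50 in set 1, of which SNAI2 made up 64.2%, and 28.4 ± 2.58 in set 2, of which SNAI2 made up 40.1%. In SUM159 the sum was 69.4 ± 4.80 in No gRNA cells, 73.5 ± 5.81 with gRNA 4 and 76.5 ± 7.22 with All gRNA, and the ranges of these 3 groups overlapped. It was 108 ± 7.19 in wild type cells of run 1 and 87.0 ± 2.55 in those of run 2. With the canonical transcript length, a choice made after the data were seen, the order changed where merged exons are long, and ZEB2 and TCF4 stood above SNAI1 in SUM159 No gRNA cells.

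**Figure D2:**
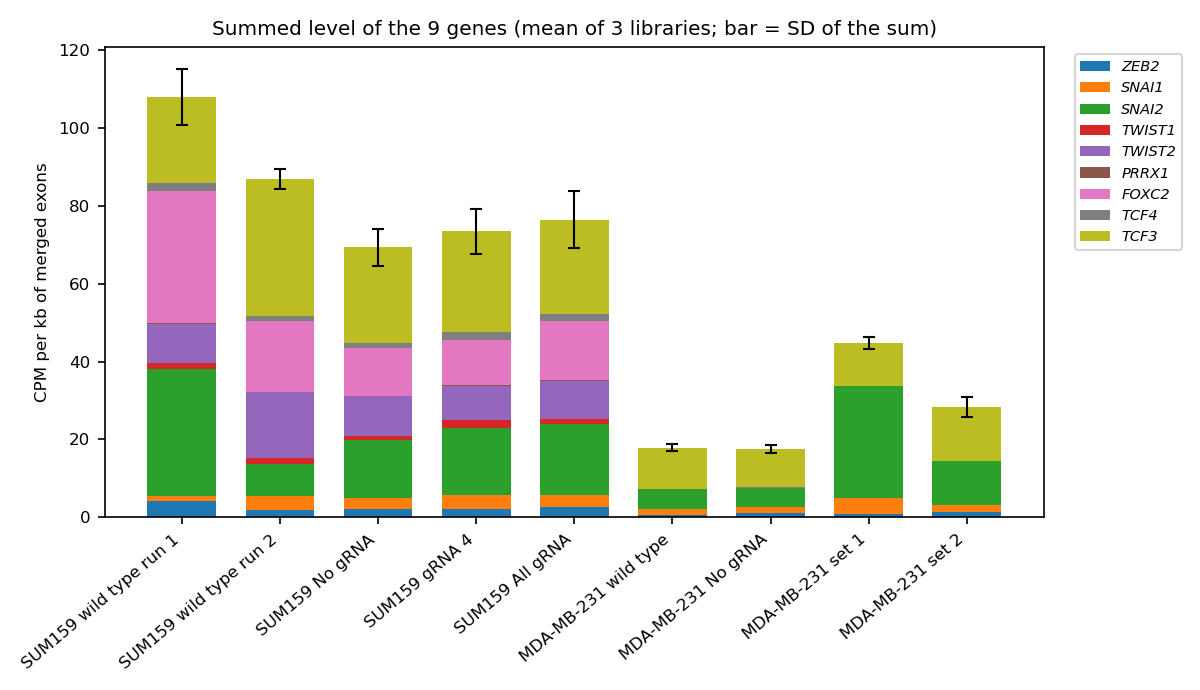
Stacked bars give the mean level of each of the 9 genes in CPM per kb of merged exons (3 libraries a group), and the black bar is the SD of the sum. SNAI2 (green) makes up 64.2% of the sum in MDA-MB-231 set 1, and SUM159 sums lie between 69.4 and 108.

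After ZEB1 silencing in MDA-MB-231, SNAI2 rose in both targeted sets and SNAI1 in set 1, while ZEB2 and TCF4 passed no test in the fits and the 4 members at or near the floor were not in them. In set 1 TREAT called 1 of 5 members tested, SNAI2, against 1.47% of 15721 genes. The moderated test called 2 of 5, SNAI1 and SNAI2, against 37.8% of genes. In set 2 TREAT called 0 of 5, against 4.14% of genes, although 1 had an unadjusted TREAT p under 0.05, and the moderated test called 2 of 5, SNAI2 and TCF3, against 52.4%. edgeR's glmTreat called SNAI1 and SNAI2 in set 1 and SNAI2 in set 2, and DESeq2 with a threshold of 1 called SNAI2 in set 1 and 0 members in set 2. Groups that did not overlap were found for 3 of 5 members in set 1 and 3 of 5 in set 2, against 48.9% and 59.7% of all genes, shares near the background.

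SNAI2, a repressor of CDH1 and a factor of neural crest and mammary stem cells, was at 15.6, 16.5 and 17.3 CPM in No gRNA cells. It was at 93.1, 94.3 and 95.8 CPM in set 1, where every library was above every No gRNA library. The fitted change was 2.52 ± 0.0616 on the log2 scale (SE), 5.74-fold (adjusted p = 5.61e-08, TREAT in limma). All 16 alternatives called it, with log2 values between 2.44 and 2.56 and adjusted p between 2.56e-85 and 6.38e-05.

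In set 2 SNAI2 was at 37.0, 37.6 and 37.6 CPM, again above every No gRNA library and below every library of set 1. The fitted change was 1.21 ± 0.0678, 2.31-fold, with a 95% interval of 1.06 to 1.35. It passed the moderated test (adjusted p = 6.19e-08 in limma) and missed the TREAT threshold (adjusted p = 0.108). Of 16 alternatives, the tests against 0 included, 3 called it, with log2 values between 1.14 and 1.24. Adjusted p over all 16 was between 3.72e-08 and 1. Set 1 and set 2, compared directly, differed by 1.32 ± 0.0509 (adjusted p = 0.00200, TREAT in limma).

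SNAI1, a repressor of CDH1 like SNAI2 and its paralogue, was at 2.36, 2.49 and 2.63 CPM in No gRNA cells, at 6.45, 7.13 and 7.36 CPM in set 1 and at 2.87, 3.06 and 3.34 CPM in set 2. Both sets lay above No gRNA, and set 1 above set 2. The change in set 1 was 1.48 ± 0.130, 2.79-fold, which passed the moderated test (adjusted p = 5.12e-06 in limma) and not TREAT (adjusted p = 0.0997). Of 16 alternatives, 3 called it, with adjusted p between 5.12e-06 and 1 over all 16. The 16 include tests against 0, among them that moderated test. In set 2 the change was 0.33 ± 0.147 (moderated adjusted p = 0.0789). The sets differed by 1.15 ± 0.125 (moderated adjusted p = 1.37e-05).

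ZEB2, the paralogue of ZEB1, passed no test in either set. It was at 26.96, 27.1 and 31.6 CPM in No gRNA cells and at 21.7, 23.2 and 25.8 CPM in set 1, all below No gRNA, a change of -0.27 ± 0.455 (95% interval -1.27 to 0.73). In set 2 the libraries were at 13.1, 15.4 and 69.1 CPM, so 1 library (replicate 1) stood far above the others. The change there was -0.21 ± 0.450 (95% interval -1.20 to 0.78), and -0.98 without replicate 1. The interval does not show that the level was the same: it holds values down to a fall of 1.20 on the log2 scale.

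TCF3 was at 57.0, 62.9 and 68.1 CPM in No gRNA cells, at 64.4, 71.6 and 74.6 CPM in set 1 and at 72.3, 81.8 and 111 CPM in set 2. It rose by 0.49 ± 0.143 in set 2 by the moderated test (adjusted p = 0.0131 in limma, 1 by TREAT). For TCF3, set 2 overlapped wild type cells of the line (60.7, 68.2 and 75.8 CPM). TCF4 was at 1.24, 1.74 and 1.87 CPM in No gRNA cells, with changes of -0.62 ± 0.470 and -0.24 ± 0.440 in sets 1 and 2 that did not pass (moderated adjusted p = 0.333 and 0.675). TWIST1 was listed at 0 in all 9 of these libraries, and TWIST2 and FOXC2 never exceeded 2 counts. PRRX1 was at most 0.529 CPM in No gRNA cells and listed at 0 in all set 1 libraries. These 4 genes passed no filter in MDA-MB-231 and were not in the fits of this line, and with so few counts a rise from silence would have had to reach the floor to be seen.

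**Figure D3:**
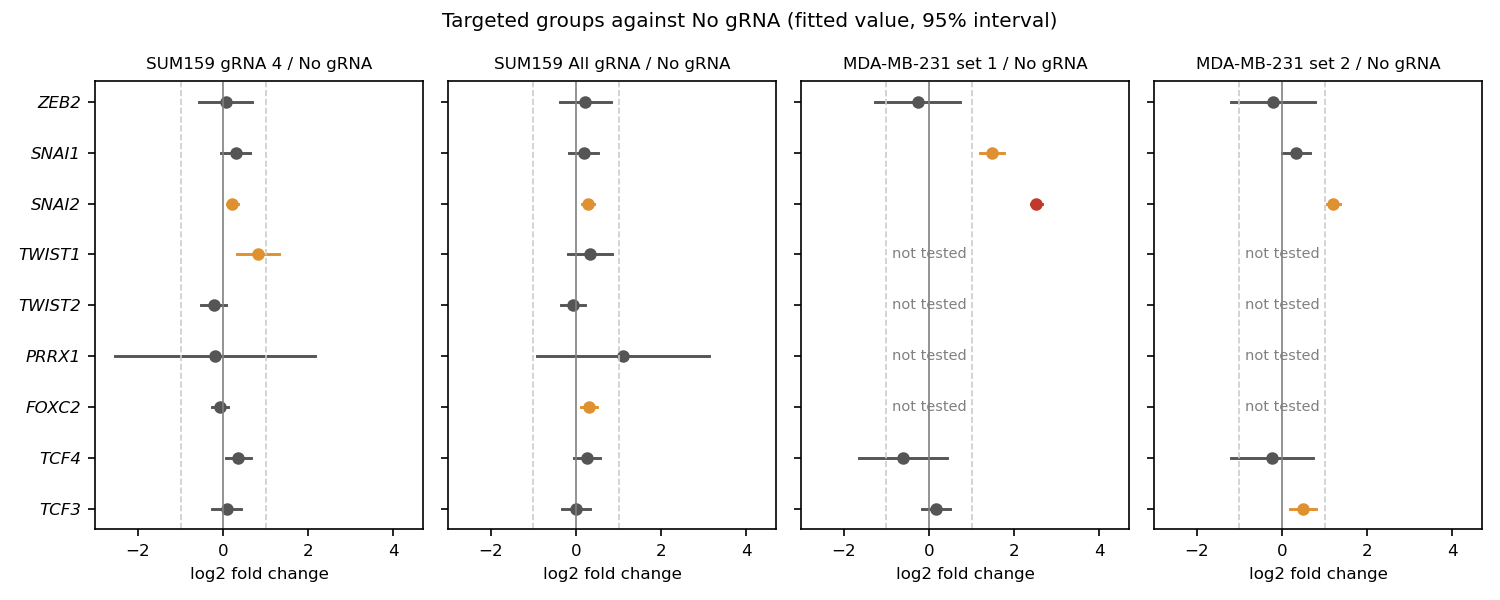
Points are fitted log2 fold changes of each targeted group over No gRNA in the same line, lines are 95% intervals, and dashed lines mark log2 fold changes of -1 and 1. Red marks a TREAT call, orange a call by the moderated test only and grey neither. In MDA-MB-231 set 1 SNAI2 (2.52) is red, and no other point in the 4 panels is.

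In SUM159 no member changed by more than 1 on the log2 scale by TREAT, and the changes that passed the moderated test were rises of SNAI2, FOXC2 and TWIST1. TREAT called 0 of 9 members with All gRNA, where 0.396% of 15147 genes were called, and 0 of 9 with gRNA 4, where 0.390% were, and no member had an unadjusted TREAT p under 0.05. glmTreat and DESeq2 with a threshold of 1 called 0 in both. The moderated test called 2 of 9 with All gRNA, SNAI2 and FOXC2, against 10.8% of genes, and 2 of 9 with gRNA 4, SNAI2 and TWIST1, against 11.0%. At an unadjusted moderated p under 0.05 there were 2 and 3. The groups did not overlap for 2 members with All gRNA and for 4 with gRNA 4, against 29.7% and 29.6% of genes. The median change of the 9 was 0.26 with All gRNA and 0.09 with gRNA 4, beside medians of all genes of 1e-04 and -7e-04.

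SNAI2 was at 47.4, 48.1 and 51.0 CPM in No gRNA cells, at 56.5, 56.6 and 58.2 CPM with gRNA 4 and at 57.9, 58.7 and 61.7 CPM with All gRNA. All 6 targeted libraries were above the 3 No gRNA libraries (exact two-sided permutation test of mean log2 CPM, p = 0.0119, the smallest the design allows). The changes were 0.22 ± 0.0616 and 0.28 ± 0.0609 (moderated adjusted p = 0.0436 and 0.0115 in limma). Their 95% intervals, 0.08 to 0.35 and 0.15 to 0.42, stay under a change of 1.

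FOXC2 was at 34.7, 35.4 and 36.5 CPM in No gRNA cells, at 31.0, 35.4 and 35.7 CPM with gRNA 4 and at 42.5, 42.5 and 46.7 CPM with All gRNA. It rose by 0.30 ± 0.0832 with All gRNA (moderated adjusted p = 0.0382), and its change with gRNA 4 was -0.08 ± 0.0870 (moderated adjusted p = 0.649). TWIST1 was at 1.94, 2.25 and 2.34 CPM in No gRNA cells, at 3.31, 3.66 and 4.76 CPM with gRNA 4 and at 2.33, 2.85 and 3.09 CPM with All gRNA. It rose by 0.82 ± 0.224 with gRNA 4 (moderated adjusted p = 0.0377), and its change with All gRNA was 0.33 ± 0.235 (moderated adjusted p = 0.425). Compared directly, All gRNA and gRNA 4 differed in 0 of 9 members by TREAT, which called 0% of genes, and in 0 by the moderated test, which called 0.944%, while 2 members had an unadjusted moderated p under 0.05 (FOXC2 and TWIST1).

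ZEB2 was at 49.0, 56.8 and 60.0 CPM in No gRNA cells, at 55.2, 57.8 and 60.1 CPM with gRNA 4 and at 49.1, 51.2 and 104 CPM with All gRNA, where replicate 1 stood apart. Its changes were 0.06 ± 0.281 and 0.21 ± 0.276, and the second was -0.14 without that replicate. SNAI1 was at 4.28, 4.53 and 5.39 CPM in No gRNA cells and between 4.91 and 6.09 CPM in the 6 targeted libraries, with changes of 0.30 ± 0.152 and 0.18 ± 0.153 for gRNA 4 and All gRNA (moderated adjusted p = 0.258 and 0.518). TCF4 was at 36.4, 45.0 and 46.5 CPM in No gRNA cells and between 44.9 and 62.3 CPM in the targeted libraries (changes of 0.36 ± 0.135 and 0.26 ± 0.136, moderated adjusted p = 0.118 and 0.267). TWIST2, between 16.8 and 24.8 CPM, and TCF3, between 120 and 192 CPM in these 9 libraries, had changes between -0.22 and 0.09. PRRX1, between 0.390 and 3.22 CPM, was at 0.390, 2.89 and 3.22 CPM with All gRNA and at 0.432, 0.528 and 1.44 CPM in No gRNA cells, groups that overlapped (1.10 ± 0.921).

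The exact permutation test of 6 targeted against 3 No gRNA libraries was run for each member and line with a library above the floor, 15 tests in all with no adjustment. It pools both targeted groups of a line, and in MDA-MB-231 these groups differed for SNAI2 and SNAI1. Its p-values therefore do not rank the lines by the size of the change. In SUM159 this exact test gave p = 0.0119 for SNAI2, 0.0238 for SNAI1, 0.0476 for TWIST1 and for TCF4, and between 0.298 and 0.762 for the others. In MDA-MB-231 the exact test gave p = 0.0238 for SNAI2 and for SNAI1, which were above No gRNA in 6 of 6 libraries, 0.0357 for PRRX1, which was at most 2 counts in the targeted libraries and above the floor in 1 No gRNA library, and between 0.0952 and 0.690 for ZEB2, TCF4 and TCF3.

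The response of SNAI2 and SNAI1 differed between the lines in the test of the difference itself. In the 24 libraries fitted together, the mean change of the targeted groups in MDA-MB-231 exceeded that in SUM159 by 1.59 ± 0.0735 on the log2 scale for SNAI2 (95% interval 1.44 to 1.74, adjusted p = 2.40e-12, moderated test in limma) and by 0.65 ± 0.177 for SNAI1 (adjusted p = 0.0103). These were 2 of 9 members called, against 25.4% of 17182 genes, and TREAT called SNAI2 alone, against 0.954%. For ZEB2 the difference was -0.40 ± 0.480 (95% interval -1.40 to 0.60), for TCF3 0.26 ± 0.204 and for TCF4 -0.76 ± 0.449, none of which passed. TWIST1, TWIST2, FOXC2 and PRRX1 were at the floor in MDA-MB-231, so their values in this test hold no response of that line. Line and run cannot be told apart here, since the targeted groups of each line were in 1 run. With wild type in place of No gRNA as control, the SNAI2 difference kept its sign and the SNAI1 difference turned to -0.71.

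The control groups of SUM159 differed from each other in FOXC2, SNAI2, ZEB2, TCF4 and SNAI1. No gRNA against wild type of the same run called 1 of 9 members by TREAT, FOXC2, against 1.53% of genes, and 5 of 9 by the moderated test, against 42.9%. FOXC2 was at 93.5, 95.7 and 106 CPM in wild type cells of run 1 and fell by 1.47 on the log2 scale in No gRNA cells (adjusted p = 0.00355, TREAT in limma). SNAI2, at 105, 106 and 111 CPM in wild type cells, fell by 1.14 (moderated adjusted p = 4.78e-08), ZEB2, at 93.1, 94.5 and 149 CPM, fell by 0.99 (moderated adjusted p = 0.00841), and TCF4, at 55.6, 63.1 and 69.1 CPM, fell by 0.56 (moderated adjusted p = 0.00468). SNAI1, at 1.46, 2.00 and 2.31 CPM, rose by 1.30 (moderated adjusted p = 0.000169). The libraries of these 5 genes did not overlap between the groups.

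Untransduced SUM159 cells of the 2 runs also differed, in a comparison that shares the run 1 wild type libraries with the last. Run 2 against run 1 called 1 of 8 members by TREAT, SNAI2, against 6.65% of 14337 genes, and 7 of 8 by the moderated test, against 62.1%. SNAI2 was lower in run 2 by 1.98 ± 0.0665 on the log2 scale, a fitted value of -1.98 (adjusted p = 0.000146, TREAT in limma), with run 2 at 25.9, 27.8 and 28.0 CPM. SNAI1 was higher by 1.65 ± 0.192, TWIST2 by 0.73 ± 0.0968 and TCF3 by 0.68 ± 0.0887. ZEB2 had a value of -1.09 ± 0.213, FOXC2 of -0.89 ± 0.0695 and TCF4 of -0.68 ± 0.122, and TWIST1 did not pass (0.10 ± 0.250). The run and the culture it came from cannot be told apart. For ZEB1 the values in these 2 comparisons were -0.12 ± 0.0895 and -0.03 ± 0.0584 (95% intervals -0.31 to 0.08 and -0.16 to 0.11).

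Against wild type of run 1 in place of No gRNA, the SNAI2 change in SUM159 was -0.93 with gRNA 4 and -0.86 with All gRNA, so its direction there rests on the control. In MDA-MB-231, No gRNA and wild type cells overlapped for SNAI2 (15.95, 16.0 and 17.8 CPM in wild type cells, a difference of -0.07 ± 0.0766 with a 95% interval of -0.23 to 0.10) and SNAI1 (-0.12 ± 0.151). There TREAT called 0 of 5 members, against 3.60% of genes, and the moderated test called 0, against 53.8%, with 1 member (TCF4) at an unadjusted moderated p under 0.05. ZEB2 was at 13.1, 14.7 and 16.3 CPM in wild type cells, below all No gRNA libraries, a change of 0.90 ± 0.497 (moderated adjusted p = 0.150 in limma), and ZEB1 itself was higher by 0.60 ± 0.0776 in No gRNA cells (moderated adjusted p = 5.16e-05). Set 1 against set 2 called 1 of 5 members by TREAT (SNAI2), against 3.07% of genes, and 2 by the moderated test (SNAI1 and SNAI2), against 51.5%.

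**Figure D4:**
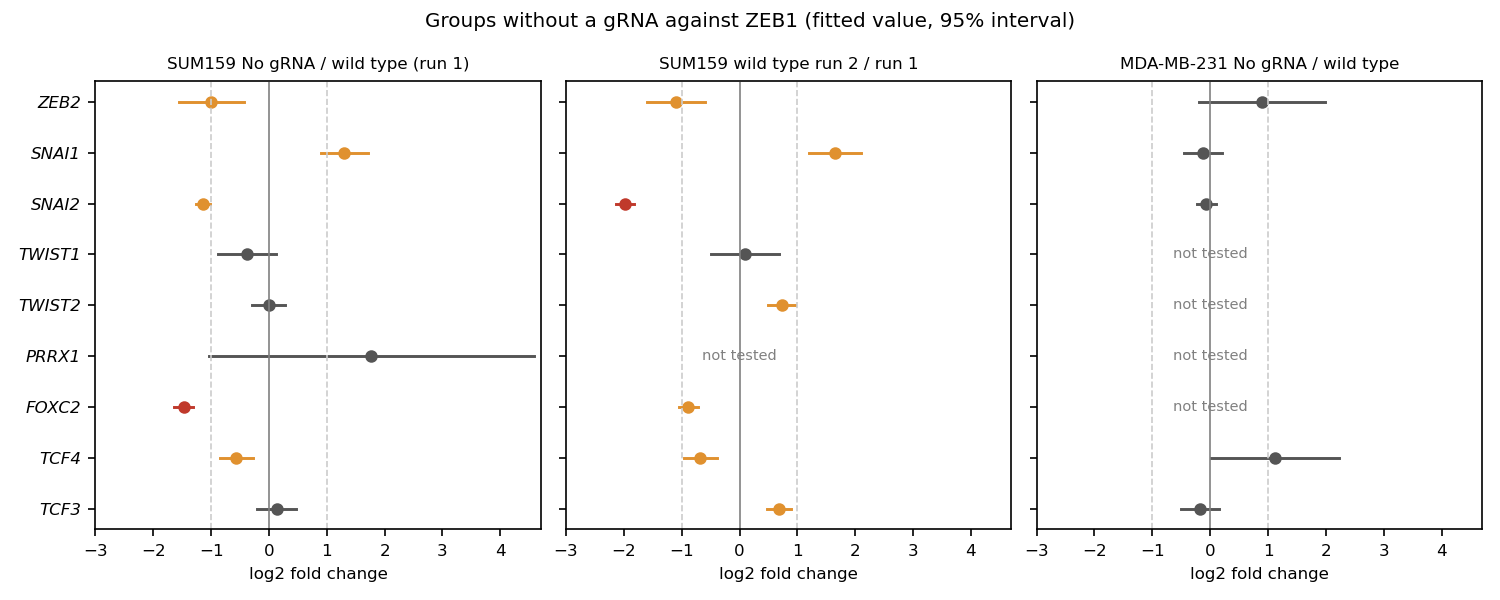
Points are fitted log2 fold changes between groups that had no guide to ZEB1, lines are 95% intervals, and dashed lines mark -1 and 1 (red TREAT call, orange moderated test only, grey neither). In SUM159, SNAI2 lies at -1.14 in No gRNA cells and -1.98 in run 2 wild type cells relative to run 1, while in MDA-MB-231 it lies at -0.07.

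The genes whose level was most like that of SNAI2 over the 12 MDA-MB-231 libraries were PLP2 (Pearson r = 0.996 of log2 CPM), S100A11 (0.991), SOWAHC (0.987), YWHAZ (0.986) and RASAL2 (0.983). With 4 groups among the 12 libraries this is a description of the group pattern, and no p is given. All 5 were higher in set 1 than in set 2 relative to No gRNA, an order that follows from picking them by likeness to SNAI2 in these libraries. Fitted changes were from 0.54 for YWHAZ to 1.30 for RASAL2 in set 1 and from 0.33 for PLP2 to 0.55 for RASAL2 in set 2.

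Other genes of the pathway were read from lists. Of the partner TCF12 and the ID proteins, which lack a DNA-binding region and sequester E proteins such as TCF3 and TCF4, TREAT called 2 of 5 lower in MDA-MB-231 set 1, against 1.47% of genes. These were ID1 (-1.42 ± 0.0882) and ID3 (-1.54 ± 0.125). In set 2 TREAT called 0 of 5, against 4.14% of genes, with 2 at an unadjusted TREAT p under 0.05. The moderated test called 4 lower, against 52.4% of genes, of which ID4 (-1.64 ± 0.209) and ID2 (-1.53 ± 0.377) changed most. ID4 in No gRNA cells, 4.80 to 5.69 CPM, was itself above wild type, 2.16 to 3.26 CPM. Set 2 was below wild type for ID4 (1.47 to 1.91 CPM) and for ID2 (0.965 to 2.31 against 5.14 to 7.04 CPM). In SUM159, where 4 of 5 were tested, TREAT called 0. The moderated test called ID1 higher in both groups (0.52 ± 0.132 with All gRNA, 0.68 ± 0.131 with gRNA 4) and ID2 lower with All gRNA (-0.68 ± 0.134). It called 10.8% of genes with All gRNA and 11.0% with gRNA 4. For ID2, All gRNA overlapped wild type cells of run 1 (10.9 to 15.7 against 13.8 to 17.5 CPM). The list's median was -0.88 in set 1 and -1.39 in set 2, beside -0.01 for all genes in each.

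Of 13 other transcription factors linked to EMT, 12 were tested in SUM159 and 9 in MDA-MB-231, and TREAT called 0 in all 4 comparisons, with none at an unadjusted TREAT p under 0.05. The moderated test called 3 higher and 0 lower with All gRNA, 2 and 1 with gRNA 4, 5 and 3 in set 1 and 2 and 2 in set 2, beside 10.8%, 11.0%, 37.8% and 52.4% of all genes in either direction. HMGA2, a chromatin protein, was called higher in all 4 (1.42 with All gRNA, 1.37 with gRNA 4, 0.51 in set 1 and 0.68 in set 2). KLF8, a zinc finger factor, was called higher in both SUM159 groups (1.12 and 0.84), and LEF1, a partner of beta-catenin, lower with gRNA 4 (-1.25). RUNX2, a factor of bone formation, was called lower in both sets (-0.63 and -0.99). Its level in No gRNA cells, 40.8 to 42.6 CPM, was itself above that in wild type cells, 23.4 to 25.9 CPM, which overlapped both sets. HMGA2 in set 1 also overlapped wild type (101 to 120 against 94.5 to 103 CPM). Of the paralogues only FOXC1 was tested, and TREAT called 0. It was higher by 0.39 ± 0.0780 in set 1 and its value was -0.32 ± 0.0854 in set 2 (moderated adjusted p = 0.00222 and 0.00778). SNAI3 never exceeded 0.930 CPM and PRRX2 never 0.187 CPM.

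Of 9 corepressors that the SNAG domain of SNAI proteins can recruit, TREAT called 0 in all 4 comparisons. The moderated test called 0 higher and 2 lower in each SUM159 comparison (AJUBA and SUZ12), 3 and 3 in set 1 and 6 and 1 in set 2, beside the same shares of all genes (10.8%, 11.0%, 37.8% and 52.4%). AJUBA, a LIM protein, was called lower in all 4 (-0.93 with All gRNA, -0.82 with gRNA 4, -0.26 in set 1 and -1.02 in set 2), and EZH2, the methyltransferase of the Polycomb complex, had opposite signs in the sets (-0.51 and 0.57). In MDA-MB-231 wild type cells AJUBA was at 155 to 174 CPM, below set 1 (216 to 247 CPM) and above set 2 (126 to 140 CPM), and No gRNA exceeded wild type by 0.71. EZH2 was at 118 to 124 CPM in wild type, 50.0 to 52.6 CPM in No gRNA and 71.4 to 76.8 CPM in set 2, so set 2 stayed below wild type. Of 8 genes that control the turnover or phosphorylation of SNAI proteins, TREAT called 0 in all 4 and the moderated test called 0 in SUM159, 2 higher in set 1 (FBXW7 and CSNK2A1, 0.52 and 0.14) and 1 higher and 2 lower in set 2 (FBXL14 0.90, FBXO11 -0.44 and CSNK2A1 -0.35). The shares of all genes called by the moderated test were again 10.8%, 11.0%, 37.8% and 52.4%. FBXO11 and CSNK2A1 were also higher in MDA-MB-231 No gRNA than in wild type cells by the moderated test (0.58 and 0.49). Of 5 antisense genes, 2 were tested in SUM159 and 1 in MDA-MB-231. TREAT called 0, and the moderated test called SNAI3-AS1 lower in set 2 (-1.02) and higher in No gRNA than in wild type cells of that line (1.49). ZEB2-AS1 was at most 0.393 CPM and FOXC2-AS1 at most 1.41 CPM, beside levels of at least 13.1 CPM for ZEB2 and, in SUM159, 31.0 CPM for FOXC2. The strand of counting is not given in the sources used here, so reads of overlapping genes cannot be told apart.

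Epithelial genes listed as E-box targets, not all of them junction genes, were read beside SNAI2, a repressor of CDH1. TREAT called 5 of 10 higher and 0 lower in set 1, against 1.47% of genes, led by CRB3 (6.16 ± 0.423), CDH1 (5.36 ± 0.917), ESRP1 (4.53 ± 0.373) and DSP (1.80 ± 0.0783). In set 2 TREAT called 4 higher and 1 lower, against 4.14% of genes, the lower being CLDN1 (-1.62 ± 0.0581). CDH1 was at 10.2 to 24.2 CPM in set 1, where SNAI2 was highest, and at 1.26 to 5.04 CPM in set 2. In SUM159 TREAT called 1 of 6 tested, DSP, higher in both comparisons (1.57 ± 0.0692 and 1.51 ± 0.0698), against 0.396% of genes with All gRNA and 0.390% with gRNA 4. TREAT also called DSP and ESRP1 between untransduced SUM159 cells of run 2 and run 1, against 6.65% of genes. In SUM159 No gRNA against wild type of run 1 it called 0 of 6, against 1.53% of genes. Of 10 mesenchymal genes TREAT called SPARC lower in both SUM159 comparisons (-1.34 ± 0.0685 and -1.68 ± 0.0717), beside the same shares of genes. In set 1 TREAT called 0 of 8 tested, and the moderated test called 4 lower and 2 higher, against 37.8% of genes. In set 2 TREAT called FN1, SPARC and MMP2 lower (-1.89, -3.86 and -2.53), against 4.14% of genes. In MDA-MB-231 No gRNA cells TREAT called FN1 (2.55 ± 0.114), MMP2 (2.51 ± 0.288) and CLDN1 (2.30 ± 0.0654) higher than in wild type cells, and the moderated test called SPARC higher (1.71 ± 0.510). FN1 and CLDN1 in set 2 (327 to 393 and 46.3 to 47.9 CPM) were above wild type (212 to 249 and 28.4 to 29.4 CPM), MMP2 overlapped it and SPARC was below it. The part of any member in these changes was not tested.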

How the data were processed

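The authors sequenced RNA as single reads of 50 bp. They made the deposited values, which are estimated counts per gene, with Salmon and tximport (length-scaled, GRCh38). The version and index of Salmon are not given in the sources used here. All 27 libraries (9 groups of 3, grouped by their labels) were used, and 56347 gene identifiers matched GENCODE release 44.

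The main test was voom (0.5 added to each count) with limma 3.58.1 in R 4.3.3, over the 12 libraries of a line, with TMM scaling from edgeR 4.0.16, genes kept by filterByExpr (minimum count 10), and TREAT for a change above 1 on the log2 scale, called at a Benjamini-Hochberg adjusted p under 0.05. Moderated p-values test the same fit against 0. The difference between lines used 24 libraries, and the wild type comparisons 6. Counting used 15461200 to 21473757 estimated counts per library. Estimated counts were rounded for edgeR and DESeq2 1.42.0. Log2 CPM had a prior count of 2. Other alternatives were scaling, filter, groups in the fit, control, replicate block and each library left out. Canonical length, the moderated test beyond the No gRNA comparisons, and libraries left out of those, were added after the data were seen. The method was tested on simulated data. P-values are two-sided. The members and lists were chosen with earlier results of these data known. Members were all accounted for, and at most 4 called genes with the largest change were named for each other list and comparison.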

Additional observations from a re-analysis of the deposited data

Results flagged for a closer look

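The response to ZEB1 silencing differed between the lines for SNAI2, by 1.59 on the log2 scale (MDA-MB-231 minus SUM159, adjusted p = 2.40e-12, moderated test of the difference in limma over 24 libraries), and for SNAI1, by 0.65 (adjusted p = 0.0103). For SNAI2 all 6 targeted libraries were above No gRNA in each line. With 1 targeted group per line, the SNAI2 difference was between 0.90 and 2.28 and was called in all 4 pairings, and the SNAI1 difference was called with set 1 (1.29 and 1.16) but not with set 2 (0.13 and 0.01, adjusted p = 0.669 and 0.987). With wild type as the control the SNAI1 difference was -0.71 (adjusted p = 0.00569) and the SNAI2 difference 2.73. Line and run cannot be told apart in any of these values.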

How the results depend on the processing

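Over all 714 alternative values, 615 were labelled the same as the main value. For a single log2 fold change this meant the same direction and side of the threshold. For a count of members called it meant an equal or near count, and for a sum per kb a shift smaller than the SD. Of 448 alternative log2 fold changes of members against No gRNA, 416 kept their sign and 32 turned it. The moderated test called 2 members in each of the 4 No gRNA comparisons (0 or 1 by TREAT), 5 for SUM159 No gRNA against wild type, 2 for set 1 against set 2 and 7 for the runs, and edgeR's quasi-likelihood test called 2 in each of the 4, glmTreat 2 in set 1 and 1 in set 2. For the difference between lines, TREAT, set 2 against All gRNA and set 2 against gRNA 4 each called 1 (SNAI2). With wild type as the control gRNA 4 had 1 call (FOXC2), and these values turned sign: with All gRNA ZEB2 -0.78, SNAI2 -0.86, TWIST1 -0.0494, FOXC2 -1.17 and TCF4 -0.30; with gRNA 4 ZEB2 -0.94, SNAI2 -0.93, PRRX1 1.58 and TCF4 -0.20; in set 1 ZEB2 0.63 and TCF4 0.51; in set 2 ZEB2 0.69 and TCF4 0.88; between lines ZEB2 1.56, SNAI1 -0.71, FOXC2 0.14 and TCF4 0.98. FOXC2 was 0.19 with set 1 against gRNA 4. TCF3 with All gRNA was -0.0121 by edgeR's tests, -0.0148 by DESeq2, -0.0325 with library totals and -0.0076 with the replicate block. ZEB2 in set 2 was 0.21 by edgeR's tests and 0.20 by DESeq2. SNAI1 between wild type lines was -0.45 with SUM159 of run 1. The cause of these turns was not tested. With single libraries left out, the values that turned sign ranged with All gRNA from -0.17 to 0.12 for TCF3, from -0.14 to 0.41 for ZEB2 and from -0.20 to 0.0513 for TWIST2, with gRNA 4 from -0.50 to 0.32 for PRRX1, from -0.0898 to 0.20 for TCF3 and from -0.0244 to 0.12 for ZEB2, and in set 2 from -0.98 to 0.25 for ZEB2. Sums per kb of canonical transcript were 151.9 in SUM159 wild type of run 1, 120.7 in run 2, 99.4 in No gRNA cells, 109.8 in All gRNA cells and 105.9 in gRNA 4 cells, and 25.3, 25.6, 64.9 and 41.4 in MDA-MB-231 wild type, No gRNA, set 1 and set 2. For same-numbered libraries of compared groups, deviations from the group mean were correlated over genes. These correlations were between -0.052 and 0.053, so replicate numbers gave no sign of pairing. The replicate block changed no call of a member (SNAI1 in set 1, 1.48, adjusted p = 0.206). Members filtered out in MDA-MB-231 had no value in the main fit, so their values without a filter were not compared. With 3 libraries a group, the 95% intervals against No gRNA were widest for PRRX1 in SUM159 (-0.91 to 3.12 with All gRNA, -2.55 to 2.16 with gRNA 4) and for TCF4 in set 1 (-1.65 to 0.42), and genes at the floor had no fitted value in MDA-MB-231.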
